A study of Mus musculus with 191 samples.

Results

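The genes described here are the Zfp family of mouse zinc finger protein genes, taken as every gene symbol that is Zfp followed by a number and nothing else. Symbols were at hand for 13798 probes of the authors' filtered table of 14667 probes, out of 25697 probes with intensities, so that Zfp genes on unnamed probes were not analysed here. The rule found 174 of 10004 symbols, carried by 214 named probes, and 34 members had more than 1 such probe. All 10004 symbols were detected in at least 1 tissue. A further 14 symbols with letters after the number, such as Zfp36l1, were not counted. Where a gene had several probes, its brightest probe in the tissue, the one of highest mean signal, stood for it.

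A zinc finger is a short protein fold held together by a zinc ion, and most Zfp proteins carry a row of such fingers that reads DNA. Many of them also carry a KRAB domain, which recruits the co-repressor Trim28 and, through it, enzymes that pack chromatin, so that the DNA they bind is silenced. The name is given by structure and not by role: Zfp36, or tristetraprolin, binds AU-rich stretches of mRNA and hastens their decay, and Zfp207 acts at the mitotic spindle.

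Male C57BL/6J mice of 10 to 12 weeks inhaled ethanol vapor for 16 h a day (chronic intermittent ethanol, CIE), while control mice inhaled air. There were 4 weekly cycles of 4 days each, with weeks between them in which the mice were left undisturbed. Before each session treated mice received ethanol with pyrazole, an inhibitor of alcohol dehydrogenase, and controls received saline with pyrazole, so that pyrazole was common to all groups. The liver and 3 brain regions, prefrontal cortex (PFC), amygdala (AMY) and nucleus accumbens (NAC), were dissected 0, 8 or 120 h after exposure ended, and each array measured 1 tissue of 1 mouse. Each of the 24 groups held 8 arrays, except the liver controls at 0 h with 7, which gave 191 arrays in all. The tissues of a time point came from the same mice, so that tissues are not independent of each other, whereas the time points used different mice.

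The median intensity of an array ran from 90.26 to 126.2 over the 4 tissues. On liver arrays 11297 to 12541 probes were detected above background. Brain arrays detected more, with 12953 to 14196 in AMY, 13432 to 14463 in NAC and 13474 to 14833 in PFC. These ranges were not split by treatment. The tissue labels were checked on marker genes. Of the 10 hepatocyte markers sought, 7 were among the named probes, of which 7 were measured in liver and 1 or 2 in each brain region. The summed intensity of 7 markers of striatal projection neurons was 23000 to 28600 on NAC arrays at 0 h. In liver, where the lowest correlation of an array with its own group was found, a treated array at 0 h reached r = 0.9695 across probes.

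Members were detected less widely in liver than in brain, and the shares that follow are of symbols detected in some tissue, not of all genes on the array. A gene counted as measured in a tissue if over 80% of the arrays detected its probe above background (detection p up to 0.05). By this rule liver measured 113 members (64.9%), against 73.7% of all symbols. AMY measured 158 (90.8%, against 87.3%), NAC 157 (90.2%, against 87.4%) and PFC 161 (92.5%, against 88.8%). Some 109 members were measured in all 4 tissues, 61 in brain alone (35.1%, against 26.3% of all symbols) and 2 in liver alone.

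The family lies in clusters. Chromosome 7 held 50 of the 174 members (28.7%) and 7.69% of the 10000 named genes that could be placed, chromosome 17 held 19 members (10.9%, against 4.77%) and chromosome 13 held 12 (6.9%, against 3.46%). Within 250000 bases of another member lay 90 of the 174. Zfp36, Zfp30 and Zfp27, to which the brain results return, all lie on chromosome 7, and in assembly GRCm38.p6 the genes of Zfp30 (chr7:29783968-29794703) and Zfp27 (chr7:29893331-29906569) are near neighbors.

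RefSeq promoters of GRCm38.p6 were matched for 141 members, which gave 171 start sites. The 250 bases before the start are printed, each 5′ to 3′ on the gene's own strand, for the member that rose in each brain region at 8 h (Zfp36), the one that fell in each (Zfp30) and a leading liver member (Zfp212). Capitals mark a match on either strand to 1 of 5 motifs. They were the GC box with the letters GGGCGG, the CCAAT box, named for its letters, the ETS site with the letters CCGGAAGT, the TATA box, searched as TATAAA, and the cyclic AMP response element, searched as TGACGTCA.
Zfp36, chr7:28379229-28379478, minus strand: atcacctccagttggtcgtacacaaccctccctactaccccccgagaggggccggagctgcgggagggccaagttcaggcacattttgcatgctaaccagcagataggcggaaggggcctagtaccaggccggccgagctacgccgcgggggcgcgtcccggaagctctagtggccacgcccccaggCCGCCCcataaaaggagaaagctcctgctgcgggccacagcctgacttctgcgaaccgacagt
Zfp30, chr7:29783718-29783967, plus strand: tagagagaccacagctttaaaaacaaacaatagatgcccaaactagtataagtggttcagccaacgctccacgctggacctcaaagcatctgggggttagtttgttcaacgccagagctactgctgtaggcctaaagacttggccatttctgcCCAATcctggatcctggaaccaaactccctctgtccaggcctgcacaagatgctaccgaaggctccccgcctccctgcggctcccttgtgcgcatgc
Zfp212, chr6:47920318-47920567, plus strand: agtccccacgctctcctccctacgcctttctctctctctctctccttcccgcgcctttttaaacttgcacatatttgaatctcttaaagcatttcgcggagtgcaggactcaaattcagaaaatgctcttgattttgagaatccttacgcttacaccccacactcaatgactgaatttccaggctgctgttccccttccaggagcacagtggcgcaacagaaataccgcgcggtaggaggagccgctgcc
The window of Zfp36 held 1 GC box and that of Zfp30 held 1 CCAAT box, whereas none of the 5 motifs was found in the window of Zfp212. Over all member promoters a GC box was found in 44.4% (32.7% of 32851 promoters of all genes), a CCAAT box in 43.9% (33.8%), an ETS site in 8.19% (2.88%), a cyclic AMP response element in 3.51% (1.55%) and a TATA box in 5.85% (12.4%). The 3 printed windows differ in base composition, with 64.8% G and C before Zfp36, 53.2% before Zfp30 and 50.8% before Zfp212. These matches describe letters and were not tested for use by any factor.

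Treated and control arrays of each time point were compared with limma on log2 quantile-normalized intensities, and the words rose and fell are kept for members with a Benjamini-Hochberg adjusted p up to 0.05 over all probes of the tissue. Differences are log2 fold changes, treated minus control, ± standard error, and levels are log2 intensities given as the lowest, median and highest array of a group. Background was not subtracted, so that changes of dim probes are understated. In all, 64 members passed at 0 or 8 h in at least 1 tissue, 21 of them in brain, 48 in liver and 5 in both. No such total is given for all genes. In each tissue at 0 and at 8 h, the share of members called in either direction was below that of all genes. The gap was narrow in places, such as liver at 0 h (20.4% against 21.8%) and AMY at 8 h (2.53% against 3.31%), and was not tested.

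**Figure D1:**
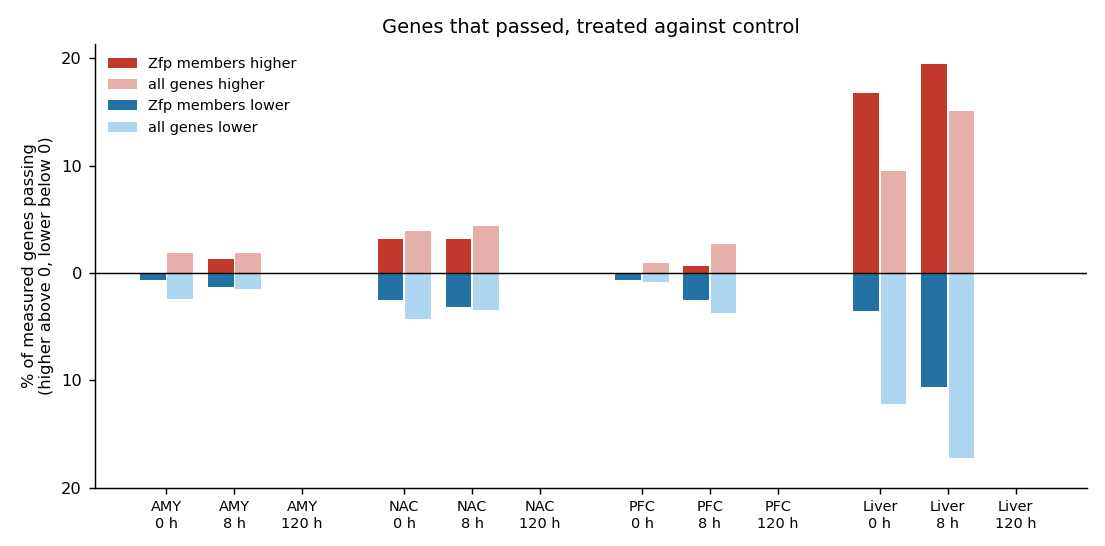
Percent of measured genes that passed limma (adjusted p up to 0.05) by tissue and hour after exposure, higher in treated mice above the zero line and lower below it, for Zfp members (dark) and all genes (light). In liver 16.8% of members were higher at 0 h against 9.55% of all genes and 3.54% were lower against 12.2%, and no bar is seen at 120 h.

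In brain, member calls were few and took smaller shares than those of all genes, a gap that was not tested. The shares called in either direction at 0 and 8 h were 0.633% and 2.53% of members in AMY. They were 5.73% and 6.37% in NAC and 0.621% and 3.11% in PFC. In AMY at 0 h no member rose and 1 fell (background 1.89% of genes higher, 2.44% lower and 4.33% in either direction), and at 8 h 2 were higher and 2 lower (1.84%, 1.47% and 3.31%). In NAC the counts were 5 higher and 4 lower at 0 h (3.87%, 4.29% and 8.16%), with 5 in each direction at 8 h (4.36%, 3.43% and 7.79%). In PFC a single member, lower in treated mice, passed at 0 h (0.89%, 0.799% and 1.69%), while 1 higher and 4 lower members passed at 8 h (2.74%, 3.73% and 6.46%). The median difference over the members lay between -0.02 and 0.00 in these 6 comparisons, as did that of all genes. AMY genes were ranked by mean intensity into 4 equal bins, which held 58, 54, 37 and 9 members from dimmest to brightest. In NAC the bins held 50, 56, 37 and 14 and in PFC 59, 55, 36 and 11. In all 6 comparisons the dimmest bin had the smallest shares of all genes called, such as 0.916% higher and 0.687% lower in AMY at 0 h. The part of brightness in the smaller member shares was not tested.

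At 8 h Zfp36 was higher and Zfp30 lower in each of the 3 brain regions, and these were the members that passed in 3 tissues at 1 time point. In AMY the Zfp36 level was 6.83, 6.89 and 7.02 in controls and 6.95, 7.04 and 7.20 in treated mice, a difference of 0.15 ± 0.037 (n = 8 and 8, limma adjusted p = 0.0336). The groups overlapped at their edges. In NAC the Zfp36 level was 6.83, 6.86 and 6.97 in controls against 6.85, 7.00 and 7.08 (0.12 ± 0.033, limma adjusted p = 0.0275), and in PFC it was 6.97, 7.05 and 7.17 against 7.11, 7.18 and 7.21 (0.11 ± 0.030, limma adjusted p = 0.0402). These differences were about 1.11-fold in AMY, 1.09-fold in NAC and 1.08-fold in PFC, on a probe of low brightness. At 0 h the Zfp36 differences were 0.08 in AMY, 0.06 in NAC and 0.09 in PFC and did not pass. The Zfp36 calls of AMY and PFC did not pass with the replicate number as a block on the authors' values (limma adjusted p = 0.113 and 0.0666). Microglia markers moved at the same hour: of 12, in AMY 3 were higher and 1 lower, with sums of 2450 to 3210 in controls and 2720 to 3550 in treated mice, and in NAC 4 were higher and 1 lower, with sums of 2400 to 2850 and 2520 to 3110. In PFC none was higher and 1 was lower (3070 to 3820 and 2880 to 3790). Their part in the Zfp36 result was not tested.

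Zfp30 is a KRAB zinc finger gene that has been linked in mice to the chemokine Cxcl1 and to neutrophils in the airway. Its AMY level at 8 h was 8.75, 8.82 and 8.86 in controls and 8.49, 8.66 and 8.74 in treated mice (difference -0.18 ± 0.034, limma adjusted p = 0.00813), and no treated array reached the lowest control. The PFC levels of 8.80, 8.88 and 8.98 in controls and 8.68, 8.74 and 8.79 in treated mice were likewise apart (-0.15 ± 0.030, limma adjusted p = 0.00796). In NAC the groups overlapped, with Zfp30 at 8.41, 8.54 and 8.70 in controls and 8.25, 8.39 and 8.53 in treated mice (-0.15 ± 0.044, limma adjusted p = 0.0402), and the NAC call did not pass with background correction (0.053) or median scaling (0.0553). By 120 h the Zfp30 differences were 0.01 in AMY and -0.07 in PFC. In liver the Zfp30 probe was dim, and the difference at 8 h was -0.06 ± 0.042 (limma adjusted p = 0.304).

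**Figure D2:**
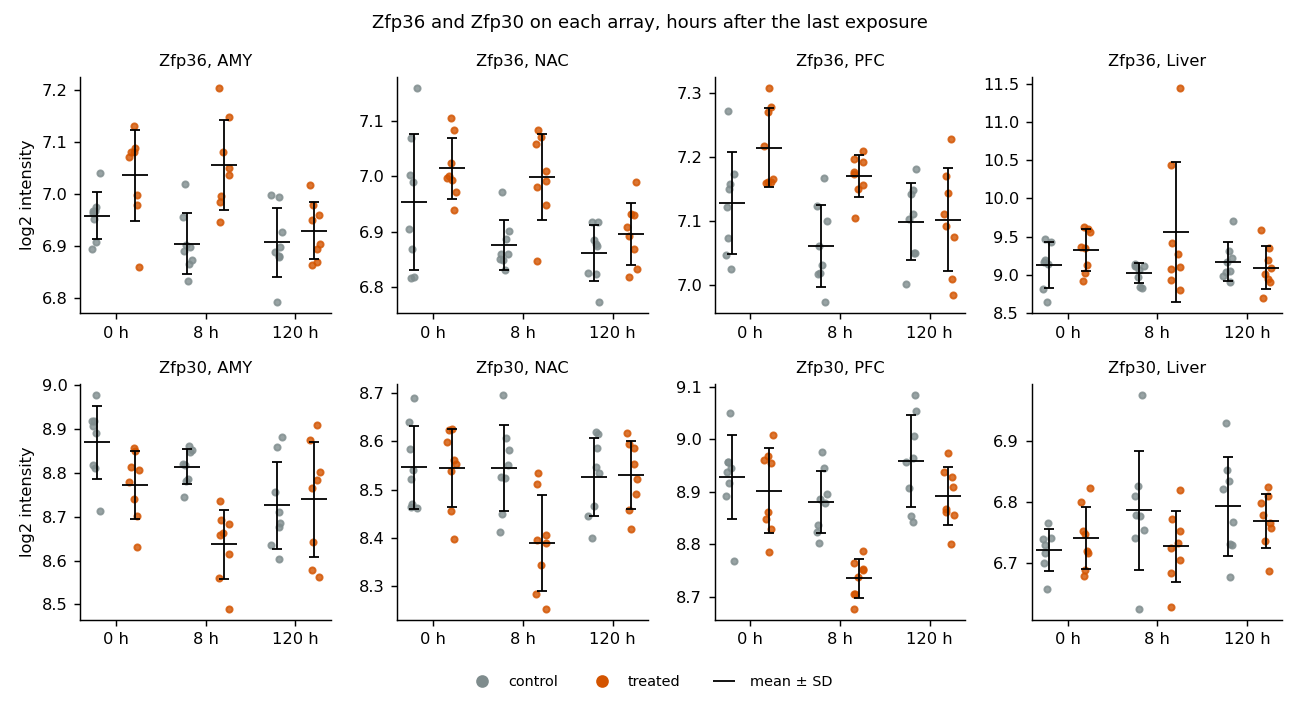
Log2 intensity of Zfp36 (top) and Zfp30 (bottom) on each array of AMY, NAC, PFC and liver at 0, 8 and 120 h, with the group mean and SD (n = 8, liver controls at 0 h n = 7). At 8 h treated arrays lie higher for Zfp36 and lower for Zfp30 in the 3 brain regions, and in liver 2 treated arrays reach Zfp36 levels of 10.44 and 11.45.

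In liver Zfp36 varied widely among the treated arrays at 8 h. Its liver level at 8 h was 8.83, 9.09 and 9.13 in controls and 8.79, 9.19 and 11.45 in treated mice, where 2 arrays at 10.44 and 11.45 stood above the other 6. The difference of 0.54 ± 0.30 did not pass (limma adjusted p = 0.186). At 0 h it was 0.20 ± 0.14 (limma adjusted p = 0.33).

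Zfp27 was the member that fell at 0 h in AMY and in PFC. The AMY level was 7.83, 7.93 and 7.97 in controls and 7.71, 7.74 and 7.89 in treated mice (-0.15 ± 0.031, limma adjusted p = 0.0124), and the groups overlapped in part. The PFC level was 8.19, 8.22 and 8.34 against 8.05, 8.08 and 8.20 (-0.14 ± 0.032, limma adjusted p = 0.0372), a call that was lost without 1 treated array (0.0523) and with background correction (0.0598). In NAC the Zfp27 difference was -0.10 ± 0.035 and did not pass (limma adjusted p = 0.0933). A second Zfp27 probe gave -0.15 in AMY (limma adjusted p = 0.0339) and -0.10 in PFC, where it did not pass (0.328). No PFC member passed at 0 h with scores of oligodendrocyte and thalamus markers as covariates. Of 9 thalamus markers in PFC at 0 h Slc17a6 rose by 0.50 (sums 4050 to 5480 in controls, 4400 to 9640 in treated mice). The part of these cells in the PFC call was not tested.

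The other AMY calls fell at 8 h. Zfp330 was at 9.25, 9.36 and 9.51 in controls and 9.47, 9.50 and 9.55 in treated mice (0.14 ± 0.035, limma adjusted p = 0.0336). Zfp809, which in mouse embryonic stem cells binds the primer binding site of retroviruses and silences them, was at 7.04, 7.14 and 7.22 against 6.87, 6.99 and 7.14 (-0.15 ± 0.040, limma adjusted p = 0.044). Both pairs of groups overlapped, and neither call held under median scaling (0.0686 and 0.0752). A second Zfp330 probe gave 0.18 in AMY at 8 h (limma adjusted p = 0.0194). The Zfp809 differences in NAC and PFC at 8 h, -0.03 and 0.05, did not pass. Of 12 oligodendrocyte markers in AMY, Olig1 fell at 0 h (sums of 21200 to 25900 in controls and 17700 to 26600 in treated mice), while Opalin (-0.38) and Ugt8a (-0.34) fell at 8 h (19700 to 23000 and 17800 to 27300). Of 9 thalamus markers Tcf7l2 fell at 0 h (4930 to 6210 and 4800 to 5700) and Prkcd rose at 8 h (4640 to 5710 and 4590 to 5630), and of 10 neuron markers Gad1 and Nefh fell at 0 h (29900 to 31900 and 28700 to 34500). Hba-a1 fell by 1.12 at 0 h and by 1.09 at 8 h on the log2 scale. With the oligodendrocyte and thalamus scores as covariates 2 AMY members passed at 0 h and 4 at 8 h, Zfp27 among them at 0 h with -0.15 (limma adjusted p = 0.0491). The shares of all genes called in these fits are not given here. The part of red blood cells and neurons was not tested.

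NAC had the most member calls of the brain regions, and 4 members passed there at both 0 and 8 h, each in the same direction. These were Zfp941, Zfp334 and Zfp810, which were higher, and Zfp420, which was lower. They made up 44.4% of the members called at 0 h and 40% of those called at 8 h, and for all genes the shares were 16.5% and 17.3%. Zfp941 had the largest difference in brain: its level at 0 h was 9.06, 9.31 and 9.50 in controls and 9.48, 9.61 and 9.74 in treated mice (0.32 ± 0.053, limma adjusted p = 0.00257, 1.25-fold). At 8 h it was 9.05, 9.18 and 9.40 against 9.38, 9.50 and 9.58 (0.28 ± 0.049, limma adjusted p = 0.00189). Only the edges of the groups met at either time. At 120 h the Zfp941 level was 9.40, 9.54 and 9.81 in controls, close to that of treated mice at 9.51, 9.63 and 9.67. The control median was higher at 120 h than at 0 or 8 h, while the treated medians lay between 9.50 and 9.63. Among NAC controls compared over 0, 8 and 120 h by limma's F test, Zfp46, Zfp810 and Zfp941 had the smallest p of the members.

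Zfp334 stood at 7.59, 7.69 and 7.77 in NAC controls at 0 h and at 7.70, 7.80 and 7.97 in treated mice (0.13 ± 0.037, limma adjusted p = 0.039). At 8 h its treated arrays all lay at or above the controls, at 7.73, 7.78 and 7.88 against 7.44, 7.60 and 7.73 (0.19 ± 0.037, limma adjusted p = 0.00426). Zfp810 differed by 0.11 at 0 h and 0.13 at 8 h. Zfp420 was at 8.31, 8.40 and 8.54 in controls at 0 h and 8.11, 8.25 and 8.37 in treated mice (-0.17 ± 0.039, limma adjusted p = 0.0127), and differed by -0.14 ± 0.041 at 8 h (limma adjusted p = 0.0497).

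**Figure D3:**
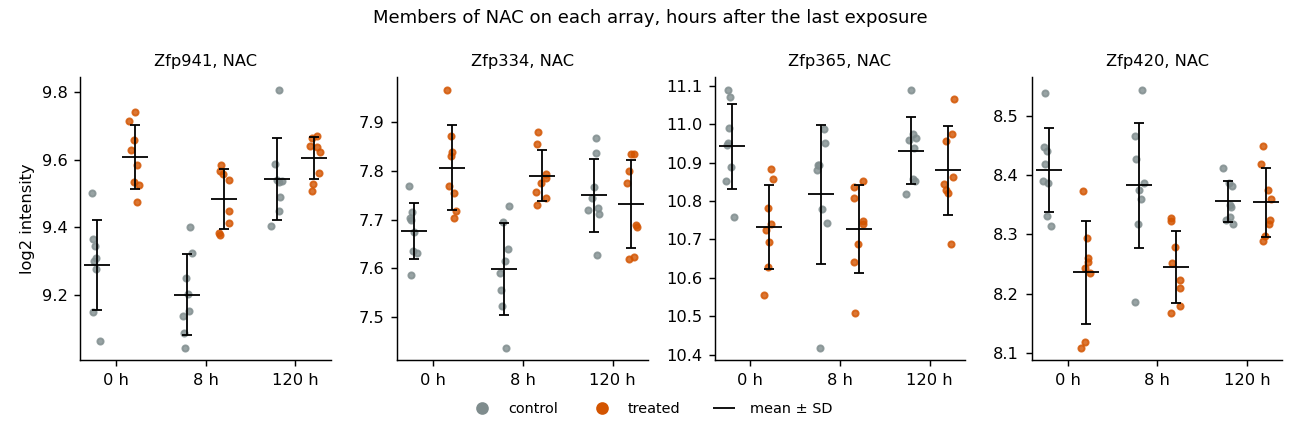
Log2 intensity of Zfp941, Zfp334, Zfp365 and Zfp420 on each NAC array at 0, 8 and 120 h, with the group mean and SD (n = 8). Zfp941 and Zfp334 were higher in treated mice at 0 and 8 h, with Zfp941 differences of 0.32 and 0.28, and Zfp420 was lower at both times.

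The remaining NAC calls were seen at 1 time point. At 0 h Zfp521, a co-regulator of neural differentiation, was at 7.67, 7.81 and 7.91 in controls and 7.85, 7.94 and 8.12 in treated mice (0.15 ± 0.039, limma adjusted p = 0.0203). Zfp451, whose human counterpart is a SUMO ligase, differed by 0.12 ± 0.036 (limma adjusted p = 0.0455). Zfp365, which encodes a partner of the schizophrenia-linked protein Disc1, was at 10.76, 10.95 and 11.09 in controls and 10.56, 10.73 and 10.88 in treated mice (-0.21 ± 0.051, limma adjusted p = 0.018). Zfp46 (-0.16) and Zfp653 (-0.11) also fell at 0 h. At 8 h Zfp236 (-0.16), Zfp12 (-0.11) and Zfp790 (-0.11) fell and Zfp397 (0.09) rose.

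Markers of other cells moved with the NAC comparisons. Hba-a1, the 1 red blood cell marker measured in NAC and in AMY, fell by 1.12 at 0 h and by 1.14 at 8 h on the log2 scale in NAC, with intensities of 433 to 2110 in controls and 270 to 1130 in treated mice at 0 h. Oligodendrocyte markers were lower for 5 of 12 genes at 0 h and higher for none, with a summed intensity of 19800 to 28800 in controls and 19900 to 26000 in treated mice. Of 9 thalamus markers 3 were higher and none lower, with sums of 2780 to 3100 and 2760 to 3550. At 8 h 4 of the 12 oligodendrocyte markers were higher and none lower. Of 9 neuron markers Syp alone passed at 0 h (0.16). At 8 h Eno2 (-0.14) and Stmn2 (-0.37) were lower and none was higher, with neuron sums of 24000 to 26900 in controls and 22600 to 24600 in treated mice. With the scores of both lists as covariates, no member passed at 0 h and 4 passed at 8 h (27 and 574 of 8741 genes). With the covariates Zfp941 at 0 h was 0.33 (limma adjusted p = 0.0648), Zfp365 was -0.22 (0.165) and Zfp420 was -0.15 (0.293). Zfp521 went from 0.15 to 0.06 (0.699). The other members called at 0 h are not given with the covariates here, and the part of these cells was not tested. In tissue punches, fewer cells of a type and less RNA per cell cannot be told apart.

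In PFC the calls at 8 h besides Zfp36 and Zfp30 were all lower in treated mice. Zfp467 was at 7.56, 7.65 and 7.68 in controls and 7.40, 7.45 and 7.58 in treated mice (-0.17 ± 0.032, limma adjusted p = 0.00593), with 1 narrow overlap. Zfp524 (7.13, 7.31 and 7.42 against 7.15, 7.17 and 7.22) and Zfp658 (7.01, 7.14 and 7.21 against 6.95, 7.02 and 7.09) each differed by -0.12 and overlapped more widely. Of the oligodendrocyte markers 1 of 12 was lower, with sums of 11200 to 13700 in controls and 10100 to 13300 in treated mice, and no thalamus marker passed, with sums of 4830 to 8060 and 4330 to 7660. Both red blood cell markers, Hba-a1 (-1.15) and Alas2 (-0.34), fell, with sums of 1740 to 4350 and 622 to 3510. With both scores as covariates no member passed (100 of 8881 genes did), and the differences lay between -0.14 and 0.13. The treated array that correlated least with its group stood at r = 0.9912 across probes. Without it 9 members passed, 2 higher and 7 lower, with no share of all genes given here.

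In liver most member calls at 0 h were higher in treated mice, while the share of members called in either direction, 20.4% at 0 h and 30.1% at 8 h, was near that of all genes. At 0 h 19 of 113 members rose (background 9.55% of genes) and 4 fell (12.2%, with 21.8% in either direction). Members with a positive difference numbered 94 (83.2%), against 51.8% of all genes, and the median difference was 0.08 for members and 0.01 for all genes. The members' median was positive on every scale tried, from 0.04 on the authors' processed values to 0.16 with background correction, and the count of members higher and lower was 20 and 4 on each of these and 15 and 4 under median scaling. Leaving out each of the 7 control arrays in turn gave 15 to 20 calls, and the lowest, 11 higher and 4 lower, came from leaving out 1 particular array. A fit of all 6 groups, which share 1 estimate of the spread, called 44 members, 37 higher and 7 lower. Without the treated array that correlated least with its group, 15 rose and 4 fell. For these alternatives the share of all genes called is not given here, so that their counts have no background beside them.

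Zfp97 and Zfp212 led the rise at 0 h. The Zfp97 level was 7.07, 7.25 and 7.36 in controls and 7.51, 7.65 and 8.06 in treated mice (0.47 ± 0.076, n = 8 treated and 7 controls, limma adjusted p = 0.000704, 1.38-fold). The Zfp212 level was 7.93, 8.02 and 8.12 against 8.24, 8.40 and 8.78 (0.43 ± 0.077, limma adjusted p = 0.00145, 1.35-fold). Every treated array lay above every control for both genes. A second, dimmer Zfp212 probe gave 0.02 (limma adjusted p = 0.688), so that the rise was measured by 1 of its 2 probes.

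Zfp639 was at 8.27, 8.56 and 8.58 in liver controls at 0 h and 8.51, 8.82 and 8.97 in treated mice (0.30 ± 0.078, limma adjusted p = 0.0135), with some overlap. Zfp672 was at 7.92, 8.04 and 8.13 against 8.05, 8.31 and 8.96 (0.39 ± 0.13, limma adjusted p = 0.0465), and here treated arrays spread widely, so that the call was lost without 1 treated array (0.0728), under median scaling (0.0611) and on the authors' values (0.0548). The other 15 members that rose did so by 0.16 to 0.28. Among them Zfp524 was at 7.34, 7.50 and 7.55 in controls and 7.58, 7.73 and 7.86 in treated mice (0.28 ± 0.049, limma adjusted p = 0.00143), Zfp282 at 7.13, 7.24 and 7.36 against 7.38, 7.43 and 7.71 (0.25 ± 0.058, limma adjusted p = 0.00782) and Zfp608 at 6.77, 6.81 and 6.86 against 6.87, 7.01 and 7.42 (0.24 ± 0.066, limma adjusted p = 0.0178). The groups of these 3 genes did not overlap, those of Zfp608 by a narrow margin. Zfp612, at 6.76, 6.88 and 6.99 against 6.96, 7.09 and 7.41, and Zfp263, at 7.94, 8.16 and 8.34 against 8.12, 8.43 and 8.61, rose with some overlap.

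The 4 members that fell in liver at 0 h were dim probes with narrow groups. Zfp692, known from human cells as a factor that binds the promoter of a gluconeogenic enzyme gene, was at 6.90, 7.07 and 7.18 in controls and 6.75, 6.79 and 6.90 in treated mice (-0.24 ± 0.041, limma adjusted p = 0.0011), and its second probe also fell (-0.13, limma adjusted p = 0.00817). Zfp2 was at 7.06, 7.07 and 7.13 against 6.87, 6.95 and 6.99 (-0.15 ± 0.029, limma adjusted p = 0.00277). Zfp513 fell by 0.19 and Zfp704 by 0.12 on the log2 scale. Zfp692 (chr11:58307057-58315145) and Zfp672 (chr11:58315114-58330368) overlap at their ends, and at 0 h the first fell while the second rose.

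**Figure D4:**
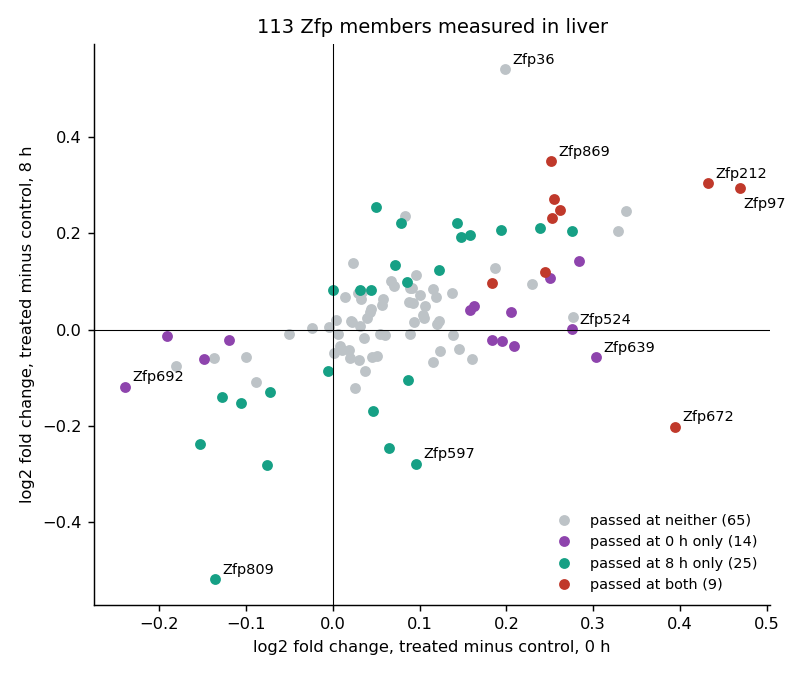
Log2 fold change, treated minus control, of each of the 113 members measured in liver at 0 h (horizontal) and 8 h (vertical), colored by the time point at which limma's adjusted p was 0.05 or lower. Most points lie right of zero (94 of 113), 9 members passed at both times and Zfp672 lies in the lower right with 0.39 at 0 h and -0.20 at 8 h.

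At 8 h 22 liver members rose (background 15.1%) and 12 fell (17.2%, with 32.3% in either direction), with a median difference of 0.02 for members and 0.00 for all genes. Zfp869 had the largest rise that passed, at 7.67, 7.75 and 7.84 in controls and 7.85, 8.01 and 8.75 in treated mice (0.35 ± 0.10, limma adjusted p = 0.0158), and its groups did not overlap. Zfp212 was at 7.93, 8.02 and 8.10 against 7.99, 8.34 and 8.74 (0.30 ± 0.083, limma adjusted p = 0.0106), and Zfp97 at 7.22, 7.33 and 7.49 against 7.43, 7.67 and 7.80 (0.29 ± 0.056, limma adjusted p = 0.000799). Some treated arrays lay within the control range for Zfp212 and Zfp97. The second Zfp212 probe gave 0.06 at 8 h and did not pass (limma adjusted p = 0.0781). Zfp318 was at 7.56, 7.65 and 7.77 against 7.80, 7.92 and 8.03, with every treated array above the controls (0.25 ± 0.039, limma adjusted p = 0.000163). Zfp207, at 7.57, 7.72 and 7.90 against 7.73, 8.02 and 8.11, and Zfp292, at 7.05, 7.24 and 7.30 against 7.25, 7.48 and 7.55, rose with overlap, by 0.25 and 0.27. Also higher were the ubiquitin ligase gene Zfp91 (0.20) and the RNA-binding protein gene Zfp106 (0.21).

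The largest fall of any member was that of Zfp809, the silencer of retroviral DNA. Its liver level at 8 h was 8.38, 8.60 and 8.74 in controls and 7.76, 8.07 and 8.38 in treated mice (-0.52 ± 0.075, limma adjusted p = 8.49e-05, 1.43-fold), and the groups were apart by a narrow margin. At 0 h the Zfp809 groups overlapped widely (-0.14 ± 0.12, limma adjusted p = 0.448). Zfp979 at 6.82, 6.94 and 7.13 against 6.59, 6.71 and 6.73 (-0.28 ± 0.047, limma adjusted p = 0.000265) and Zfp930 at 7.35, 7.41 and 7.47 against 6.99, 7.22 and 7.25 (-0.25 ± 0.040, limma adjusted p = 0.00021) also had separate groups. Zfp597 fell by 0.28 ± 0.064 (limma adjusted p = 0.00351), with overlap, as did Zfp750, from 7.27, 7.47 and 7.56 to 7.07, 7.20 and 7.31. The remaining 7 members that fell at 8 h, Zfp672 among them, did so by 0.09 to 0.20 on the log2 scale.

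Markers of other liver cells also moved. Of 8 Kupffer cell markers 5 rose at 0 h and 6 at 8 h and none fell, with summed intensities of 2150 to 4410 in controls and 3290 to 5220 in treated mice at 0 h and 2450 to 4120 and 3740 to 5570 at 8 h. Of 8 genes listed as endothelial markers 3 and 4 rose and none fell, with sums of 1520 to 1610 and 1780 to 2420 at 0 h. The largest rise was that of Slco1a4 (1.07 at 0 h and 0.84 at 8 h). Whether this gene marks endothelium in liver was not tested, so the sums may not speak for endothelium alone. The others that rose did so by 0.22 and 0.46 at 0 h and by 0.10 to 0.32 at 8 h. Both red blood cell markers, Alas2 and Hba-a1, fell at 0 and 8 h. Of 7 hepatocyte markers 2 rose and 2 fell at 0 h. The part of these cells in the member results was not tested.

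Brightness was also set beside the liver result. When all genes measured in liver were ranked by mean intensity and cut into 4 bins of equal size, the bins held 55, 35, 21 and 2 members from the dimmest to the brightest. At 0 h 2, 8, 9 and 0 of them rose, while 5.05%, 10.7%, 10.9% and 11.6% of all genes in these bins did. The median member difference was 0.04, 0.10 and 0.24 in the first 3 bins, against 0.01, 0.01 and 0.02 for all genes.

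In liver 9 members passed at both 0 and 8 h, 39.1% of those called at 0 h and 26.5% of those called at 8 h. For all genes the shares were 58.1% and 39.1%. Zfp97, Zfp212, Zfp292, Zfp318, Zfp608, Zfp612, Zfp771 and Zfp869 rose at both times, and Zfp672 rose at 0 h and fell at 8 h. The 2 time points used different mice. Tested directly, as the effect at 8 h minus the effect at 0 h in a fit of all 6 groups, the effect was lower at 8 h for 7 members and higher for none (background 2.09% lower, 3.19% higher and 5.28% in either direction). The largest difference of effects was that of Zfp672 (-0.60 ± 0.14, limma adjusted p = 0.0068), whose liver level was 8.17, 8.36 and 8.49 in controls and 7.86, 8.14 and 8.39 in treated mice at 8 h. Zfp597 (-0.37 ± 0.092, limma adjusted p = 0.00929) and Zfp524 (-0.27 ± 0.065, limma adjusted p = 0.00701) followed, the latter with liver levels at 8 h of 7.42, 7.56 and 7.66 in controls and 7.41, 7.55 and 7.70 in treated mice, and the other 4 were Zfp639, Zfp930, Zfp637 and Zfp758.

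In brain the effect differed between 0 and 8 h for 1 NAC member (background 2.76% in either direction) and 1 PFC member (4.36%). Zfp39 in NAC had a difference of 0.19 ± 0.046 between the effects (limma adjusted p = 0.0195), with -0.12 at 0 h and 0.07 at 8 h, neither of which passed alone. Zfp362 in PFC had -0.31 ± 0.066 (limma adjusted p = 0.0032), with 0.13 at 0 h and -0.19 at 8 h, which did not pass either. In AMY no member passed (0.607% of genes did), and the smallest adjusted p was that of Zfp532 (0.118).

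At 120 h no member passed in any tissue, nor did any other gene (0% of genes called). At an unadjusted p of 0.05 liver had 11 members (9.73%, against 8% of all genes), PFC 8 (4.97%, against 3.55%), NAC 7 (4.46%, against 5.02%) and AMY 1 (0.633%, against 3.29%). The members of smallest p were Zfp87 in AMY (-0.06 ± 0.031), Zfp451 in PFC (-0.18 ± 0.048) and Zfp317 in NAC (0.11 ± 0.032) and in liver. Liver Zfp317 was at 7.50, 7.57 and 7.69 in controls and 7.59, 7.81 and 7.91 in treated mice (0.19 ± 0.046, limma adjusted p = 0.346), with groups that overlapped. The large liver differences of the earlier hours were not seen at 120 h: Zfp97 differed by 0.05 and Zfp212 by 0.04.

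Members also differed among control mice of different time points. By limma's F test over 0, 8 and 120 h, 26 members passed in AMY (background 22.4%), 18 in NAC (17.5%), 43 in PFC (31.7%) and 50 in liver (56.8%). What else changed between the sampling times cannot be told apart from the time point. In AMY controls Zfp365 had the smallest p, at 10.33, 10.51 and 10.71 at 0 h, 10.71, 10.82 and 11.16 at 8 h and 10.92 to 11.09 at 120 h (0.49 ± 0.053 for 120 minus 0 h, limma adjusted p = 5.21e-07). Zfp46 was lower in controls at 8 h than at 0 h in NAC (-0.40 ± 0.056, limma adjusted p = 9.08e-05) and in PFC (-0.32 ± 0.056, limma adjusted p = 0.00208). In NAC controls it went from 9.72, 9.89 and 10.03 at 0 h to 9.26, 9.48 and 9.73 at 8 h, and its level at 120 h was 9.69, 9.80 and 9.93. PFC controls had lower Zfp27 at 120 h than at 0 h (-0.23 ± 0.031, limma adjusted p = 1.94e-05) and higher Zfp362 (0.24 ± 0.041, limma adjusted p = 0.000181).

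**Figure D5:**
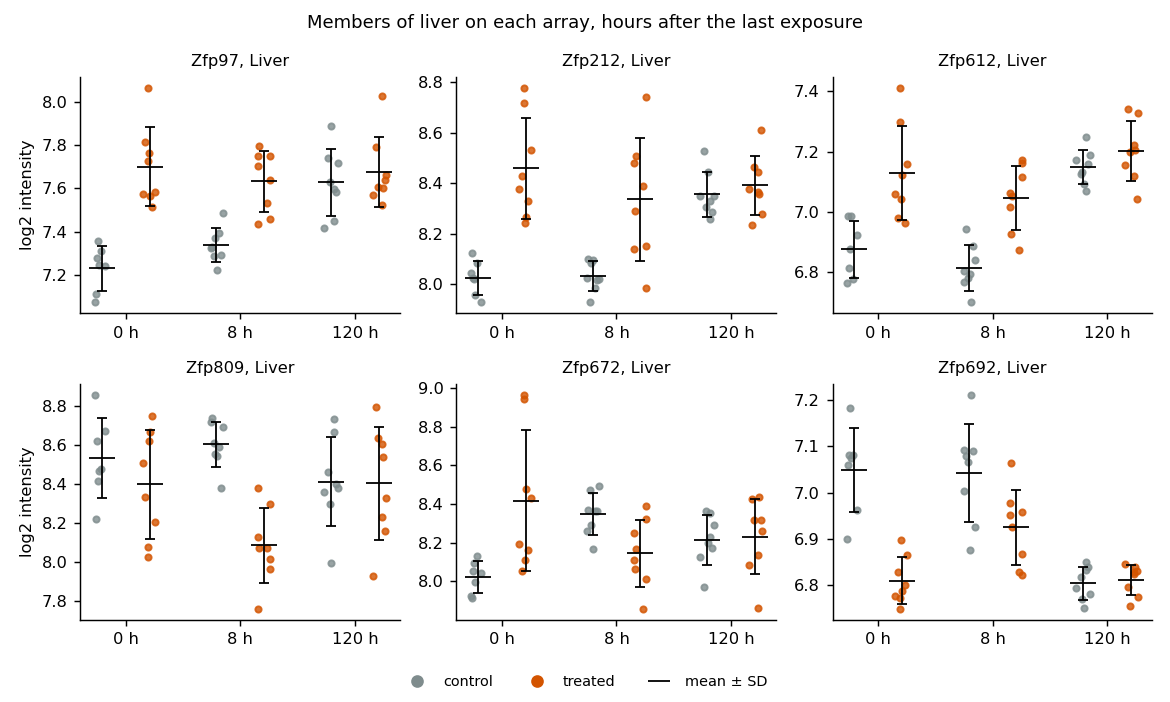
Log2 intensity of Zfp97, Zfp212, Zfp612, Zfp809, Zfp672 and Zfp692 on each liver array at 0, 8 and 120 h, with the group mean and SD (n = 8, controls at 0 h n = 7). For Zfp97, Zfp212 and Zfp612 the controls at 120 h lie above those at 0 and 8 h, and for Zfp809 the treated arrays are low at 8 h alone.

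In liver controls 29 members were higher at 120 h than at 0 h by the test of those 2 time points (background 23.9%) and 7 were lower (22.5%), and the median of 120 minus 0 h was 0.05 for members and 0.01 for all genes. This comparison and that of treated mice at 0 h share the control arrays at 0 h, so that their values are only set side by side. Zfp212 differed by 0.33 ± 0.039 among controls (limma adjusted p = 3.33e-07) and by 0.43 between treated and control mice at 0 h. For Zfp612 the values were 0.27 ± 0.040 (limma adjusted p = 7.55e-06) and 0.25, for Zfp97 0.40 ± 0.059 and 0.47, and for Zfp692 -0.25 ± 0.043 and -0.24. The 8 h controls are other mice, and they differed from those at 0 h by 0.01 ± 0.039 for Zfp212 and -0.06 ± 0.040 for Zfp612. Compared with the 8 h controls, treated mice at 8 h had higher Zfp212 and Zfp612, Zfp612 by 0.23 ± 0.046 (limma adjusted p = 0.00121). Zfp97 (0.11 ± 0.059) and Zfp692 (-0.01 ± 0.043) did not pass between 8 h and 0 h controls. Treated mice at 8 h had higher Zfp97, while the Zfp692 difference there, -0.12 ± 0.047, did not pass (limma adjusted p = 0.0682). The part of the level of the 0 h controls in the 0 h results was not tested. Markers moved over time in controls as well. In liver 6 of 8 Kupffer cell markers passed the F test, 3 of them lower at 120 h than at 0 h and none higher, with sums of 2150 to 4410 at 0 h and 2130 to 2580 at 120 h, and both red blood cell markers were higher at 120 h (2150 to 6060 and 4960 to 13400). In PFC 8 of 9 thalamus markers passed (4050 to 5480 and 4770 to 7850). Their part in the changes of members over time was not tested. In liver Zfp277 was lower in controls at 8 h than at 0 h (-0.20 ± 0.039, limma adjusted p = 0.00126). Against these 8 h controls it rose by 0.22 in treated mice (limma adjusted p = 0.00229), while its second probe gave -0.02 (0.577).

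Of a list of 39 Zfp genes with described roles, 24 were among the named and detected symbols and 17 were measured in liver. The other 15 were not analysed here. Besides Zfp36, Zfp30, Zfp809, Zfp521 and Zfp365, those that passed were Zfp292, which rose in liver at both times, and Zfp91, Zfp106 and Zfp207, which rose there at 8 h. Zfp281, a regulator of stem cells, Zfp24, which is needed for myelination, the promoter-binding genes Zfp148, Zfp219 and Zfp131, and Zfp598, which marks stalled ribosomes, did not pass in any tissue. Their differences at 0 and 8 h lay between -0.15 and 0.33, the highest being that of Zfp131 in liver at 0 h.

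The partners of KRAB proteins were described by a list of co-repressors and heterochromatin genes, of which 21 were named and measured. In liver 3 of these 21 were higher and 1 lower at 0 h (background 9.55% of genes higher and 12.2% lower). At 8 h 4 were higher and 3 lower (15.1% and 17.2%). Trim28, the co-repressor that KRAB domains bind, rose by 0.24 at 0 h, the chromatin remodeler Chd4 by 0.42 and Morc2a by 0.33, while Cbx5, the heterochromatin protein HP1 alpha, fell by 0.29. In AMY none passed, in NAC Morc2a and Rbbp7 fell at 0 h (4.29% of genes lower), and in PFC Morc2a and Kdm1a fell at 8 h (3.73%). In brain at 8 h, where Zfp36 passed, no gene of a list of AU-rich mRNA decay, its pathway, rose, and of 19 or 20 measured genes Tia1 alone fell, in AMY (-0.15) and in PFC (-0.23). Of 17 such genes measured in liver 4 rose and none fell at each of 0 and 8 h (background 9.55% and 15.1% higher), among them Zfp36l1 (0.48 at 0 h) and the helicase gene Ddx6 (0.32 at 8 h).

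Other zinc finger families of the liver gave small numbers (background 9.55% of genes higher and 12.2% lower at 0 h, 15.1% and 17.2% at 8 h). Of 3 Zscan genes 2 rose at 0 h and 3 at 8 h, and of 5 Zkscan genes 1 and 3 rose. Of 16 Zbtb genes 1 was lower at 0 h, and the counts at 8 h were 2 higher and 4 lower. Of 11 Klf genes 4 rose at each time, led by Klf6 (1.48) at 0 h and Klf9 (1.27) at 8 h.

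Where a liver member had more than 1 measured probe, the probes mostly agreed in sign but seldom both passed. Among members called by their brightest probe at 0 h, 4 of 4 other probes had the same sign and 2 of them passed, those of Zfp292 and Zfp692. At 8 h 6 of 7 had the same sign and 1 passed, that of Zfp106. Over all liver members, called or not, 21 of 23 other probes had the same sign at 0 h and 18 of 23 at 8 h.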

How the data were processed

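Illumina MouseRef-8 v2 arrays, 191 in all, measured RNA of AMY, NAC, PFC and liver. The authors deposited an intensity per probe that was not normalized, with a detection p-value for its signal against negative controls. They also deposited log2 values that lumi had filtered, variance-stabilized and quantile normalized, whose scale and centring within an array are not given in the sources used here. Probe symbols came from the platform annotation of the authors' 14667 filtered probes, of which 13798 had 1 symbol, none had several and 869 were unnamed here. Positions came from RefSeq GRCm38.p6, which covered all 174 members. Protein sequences were not analysed here.

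For each tissue, probes detected (p up to 0.05) on over 80% of arrays were kept, and their log2 intensities were quantile normalized with limma 3.58.1 in R 4.3.3, without background correction. The authors' variance stabilization was not rerun. Groups followed the labels. Treatment was tested within each time point with lmFit and eBayes, controls over time with an F test, and effects at 8 and 0 h in a fit of all 6 groups, all two-sided, with Benjamini-Hochberg adjustment over all probes kept. The number of arrays limits the precision. No batch was labelled. On simulated data, changes of 0.2 were recovered in 41% of cases for liver at 0 h, 51% for liver at 8 h, 55% for PFC at 8 h and 73% for AMY at 0 h, and changes of 0.4 in 86%, 82%, 99% and 98%.

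Members and lists were chosen with earlier results of these data known. Named members are the 4 largest rises and falls that passed in each tissue at 0 and 8 h, the member of smallest p at 120 h, members passing in 3 tissues, the 3 of smallest p in controls over time, those of smallest p for the difference between effects, and a list of members with described roles. Members named beyond this, such as Zfp97 over time in controls, Zfp397, Zfp790 and the further liver members, were chosen after their values were seen. Alternatives were normexp background correction (offset 16), the authors' processed values, median scaling, a detection filter of 50%, any probe of the gene, symbols with letters, removal of the least correlated array, a fit of all 6 groups, marker scores as covariates, and the replicate number as a block. The block on the authors' values and the removal of each liver control array at 0 h were chosen after seeing the data.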

Additional observations from a re-analysis of the deposited data

Results flagged for a closer look

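Of 134 groups of 8 or 7 arrays tested for named members, 7 held 1 array far from the others on Dixon's test, where chance gives about 1 in 20. A low array was seen for Zfp207 in AMY controls at 120 h (7.859, next 7.96), for Zfp292 in treated liver at 8 h (7.249, next 7.426) and for Zfp979 in treated liver at 8 h (6.594, next 6.69). A high array was seen for Zfp451 in treated NAC at 0 h (7.42, next 7.29), Zfp236 in treated NAC at 8 h (8.025, next 7.916), Zfp941 in NAC controls at 120 h (9.806, next 9.586) and Zfp362 in PFC controls at 8 h (9.795, next 9.648).

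The effect of treatment differed between 8 and 0 h, by the limma contrast of the effects, for Zfp39 in NAC (0.1866), Zfp362 in PFC (-0.3143) and Zfp672 (-0.596), Zfp524 (-0.2747) and Zfp597 (-0.3747) in liver.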

How the results depend on the processing

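Counts of members called are small in brain, and several moved by more than 1.5 times. No share of all genes is given beside the alternative counts that follow. With normexp the AMY count at 0 h went from 1 to 3 and the PFC count at 0 h from 1 to 0. Under median scaling AMY at 8 h went from 4 to 2, NAC at 8 h from 10 to 5, NAC controls over time from 18 (called by the F test, 11 of them higher and 7 lower at 120 h by sign) to 29 (13 and 16) and PFC controls from 43 (22 and 21) to 95 (65 and 30), while AMY controls split into 21 higher and 13 lower instead of 12 and 14. On the authors' values PFC at 0 h gave 2 and the AMY difference of effects 1 instead of 0, which any probe of the gene also gave. Without the least correlated array AMY at 0 h gave 2 and PFC at 8 h 9 instead of 5. A fit of all 6 groups gave 2 (AMY, 0 h), 7 (AMY, 8 h), 17 instead of 9 (NAC, 0 h), 2 (PFC, 0 h), 8 (PFC, 8 h) and 44 instead of 23 (liver, 0 h, 37 higher and 7 lower). Marker scores as covariates gave 2 (AMY, 0 h), 0 (NAC, 0 h), 4 (NAC, 8 h), 0 (PFC, 0 h) and 0 (PFC, 8 h). Without each liver control array at 0 h in turn, the liver count at 0 h was 15 to 20 and that of controls over time 46 to 51. The causes were not tested.

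Replicate numbers did not pair the arrays: over 95 pairs, correlations of deviations from the group means ran from -0.34 to 0.565, and in no comparison were all above 0.1. With the replicate number as a block on the authors' values, AMY at 8 h gave 1 call and PFC at 0 h gave 0, and the liver counts were 18 at 0 h and 24 at 8 h. The labels of the liver controls at 0 h disagree on their replicate numbers (those of the titles were used), so that this block may match the wrong arrays there.

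Of 60 calls of named members, 10 were lost under median scaling, 6 with normexp, 2 on the authors' values, 1 at the 50% filter and 15 with the block, 5 of 55 without the least correlated array and 18 of 27 in brain with the covariates. No direction was reversed. Small differences in dim probes are limited by background, which was not subtracted.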
